A study of Mus musculus with 4 samples.

Results

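The genes described here encode Rab GTPases, SNARE proteins with their partners, Vps proteins and subunits of the AP adaptor complexes, the parts that move membrane cargo between compartments. They were taken by symbol from the single-gene probe sets of the array: every gene whose symbol starts with Rab, Vamp, Stx, Snap or Vps and a number, with Stxbp, or with Ap, a complex number from 1 to 4, a subunit letter and a number. This gave 129 probe sets for 99 genes, out of 12422 probe sets other than controls and 8251 genes with a single symbol. Each gene is represented by its brightest probe set over the 4 arrays. The cells are a mouse Th1 T cell clone, a CD4 helper line of the kind that makes interferon gamma. Anergic cells (arrays 1 and 2) had been treated with antibody against CD3, part of the T cell receptor complex, bound to the plate. Control cells (arrays 1 and 2) are the normal, quiescent clone, for which no treatment is named. The labels give neither the clone's name nor the times, and do not say whether a group's arrays hold separate cultures. The p-values therefore rest on array-to-array spread that could be technical.

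Transport between compartments follows a common scheme. Adaptor complexes such as AP-1, AP-2 and AP-3 select cargo and build a coat on the budding vesicle, Rab GTPases mark each membrane and recruit motors and tethers, and SNARE proteins on vesicle (VAMP) and target (syntaxin and SNAP) membranes zip together to fuse them. In T cells these parts carry receptors to and from the immunological synapse, release cytokines and deliver lytic granules, whose fusion in cytotoxic lymphocytes needs Munc18-2 (Stxbp2), syntaxin 11 and Rab27a. Syntaxin 11 and Rab27a are not among the genes analysed here.

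Values are deposited intensities on a linear scale, and differences are of log2(intensity + 29.15), anergic minus control. This scale understates the change of dim genes. Intensities of different probe sets are not comparable as levels of different genes. A gene was tested when its mean log2 value lay above the 40th percentile of all probe sets, which corresponds to an intensity of about 92.4. Of the 99 genes, 84 passed this filter, and 5583 genes passed in all. The test was limma with Benjamini-Hochberg adjustment over all 5583 genes, two-sided, at a threshold of 0.05. Of the 84 tested genes, Vamp5 and Ap3s1 rose in anergic cells and 0 fell. Over all genes 1.33% were called higher and 0.842% lower (74 and 47 genes). At an unadjusted p under 0.05, 7 of the 84 genes were higher, where 6.32% of all genes were, and 1 was lower, where 6.38% of all genes were. The lower genes were thus fewer than their share over all genes, and most of the genes described below did not pass. Centring each array on its median instead moved the median difference of all genes from -0.0850 to 0.0214 and gave 47 genes higher and 13 lower, so 78.3% of calls were higher in place of 61.2%. With that centring Vamp5 was the trafficking gene called, and Ap3s1 was at 1.46 (adjusted p = 0.162).

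The libraries differed in ways that touch these values. All 4 arrays had been scaled to a trimmed mean of 500.3, but the geometric mean of the 9 bacterial spike-in probe sets was 870 and 1014 on anergic arrays 1 and 2, against 949 and 1972 on control arrays 1 and 2. Of 12 T cell markers 10 were measured, 9 were tested and 0 were called by limma. Cd3e was at 8278 and 6808 in anergic cells and at 10102 and 5974 in control cells, and Cd4 at 4586 and 5106 against 4084 and 3942. The 9 tested T cell markers went both ways: differences ranged from -0.60 for Thy1, with Zap70 at -0.39, to 0.68 for Cd3d. In these 3 and in Cd4 (0.27) the groups did not overlap. Cd5, measured but below the filter, was at 130.5 and 118.3 in anergic cells, against 19.8 and 71.9 in control cells, without overlap. Of all genes tested, 17.3% had both anergic arrays above both control arrays and 24.0% had both below. Summed markers of macrophages and dendritic cells stood at 1458 and 1963 in anergic cells and at 1231 and 1529 in control cells, and summed T cell markers at 52962 and 50739 against 63632 and 53861. In that list of 8 measured genes Cd68, which encodes a lysosomal glycoprotein, rose by 2.31 ± 0.36 (SE, adjusted p = 0.0103), to 498 and 532 in anergic cells, against 71 and 91.3 in control cells. Both control values lay below the intensity of the filter, so Cd68 entered the test through its anergic values. This call was lost when either anergic array was left out. The difference was then 2.35 without array 1 and 2.26 without array 2, with a spread from the control arrays alone. The other tested genes of the list, Cd14, Csf1r and Itgax, were at -0.13, 0.03 and 0.31 and did not pass. Lyz2, Adgre1, Itgam and Mrc1 lay below the filter and went different ways. Lyz2 was at 11.7 and 11.4 in anergic cells, against 129.1 and 73.3 in control cells. Adgre1 was at 36.4 and 36.9 in anergic cells, against 24.0 and 20.2 in control cells. The groups overlapped for Itgam and Mrc1. Summed B cell markers stood at 606 and 828 against 580 and 923, fibroblast and stroma markers at 1416 and 2185 against 1746 and 1955, erythroid and platelet markers at 223 and 270 against 134 and 475, and neuron markers at 644 and 872 against 820 and 793. The part of other cells in the results below was not tested.

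Vamp5 showed the largest difference among the 84 genes. It encodes myobrevin, a vesicle SNARE first described in skeletal muscle. Its probe set was at 1418 and 990 in anergic cells, against 50 and 27.6 in control cells. Both anergic arrays were thus far above both control arrays, and both control values were below the intensity that corresponds to the filter, so Vamp5 entered the test through its anergic values. The log2 difference was 4.18 ± 0.37 (SE, 95% interval from 3.34 to 5.01, adjusted p = 0.000491), a fold of 18.1 on that scale. Since the control values are dim, the size depends on the pseudocount: it was 2.76 with the pseudocount at the array median and 4.96 with a pseudocount of 1. In every alternative fit in which Vamp5 was tested it passed, and leaving out each array in turn gave between 3.93 and 4.43. In bulk RNA a larger number of expressing cells and more RNA per cell cannot be told apart.

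Vamp8, which encodes endobrevin, a SNARE of late endosomes and of secretory granule fusion in several blood cell types, was the next VAMP gene by difference. Its brighter probe set was at 11771 and 11356 in anergic cells, against 6192 and 3084 in control cells. The groups did not overlap, but the control arrays differed from each other more than the anergic arrays did. The log2 difference was 1.40 ± 0.31 (SE, 95% interval from 0.70 to 2.09), with an adjusted p of 0.0533, just outside the threshold. The dimmer probe set was at 6026 and 4659 in anergic cells, against 1661 and 1111 in control cells. Its difference was 1.94, with adjusted p = 0.0157 in the fit over all 7453 tested probe sets, of which 0.912% were called higher. Both probe sets thus lay in the same direction. Both have names ending in _f_at, which on Affymetrix arrays marks probes shared within a sequence family, so signal from related transcripts cannot be separated. With the mean of the 2 probe sets Vamp8 was at 1.67 and passed (adjusted p = 0.0197). The size rested on the control arrays: it was 1.90 without control array 1 and 0.90 without control array 2. It was 1.37 and 1.42 without anergic array 1 and 2. With 1 array left in a group, the spread came from the other group alone, so only sizes are given for these fits.

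Vamp5 and Vamp8 are next to each other on chromosome 6 and lie on the same strand in the RefSeq annotation of GRCm38.p6. Their promoters, the 300 bases from 250 before to 50 after the annotated start, are shown because these are the neighbouring genes with the 2 largest differences among all trafficking genes. Capitals mark matches on either strand to any of 8 motifs, which were GGAAA (NFAT), TGANTCA (AP-1), GGGANTTCC (NF-kB), GCGNGGGCG (Egr), TTCNNNGAA (STAT), GAAA followed after any 2 bases by GAAA (ISRE), TGACGTCA (CRE) and CACGTG (E-box). The Vamp5 window is chr6:72380419-72380718 and the Vamp8 window chr6:72390618-72390917, both on the minus strand and written 5′ to 3′.
Vamp5: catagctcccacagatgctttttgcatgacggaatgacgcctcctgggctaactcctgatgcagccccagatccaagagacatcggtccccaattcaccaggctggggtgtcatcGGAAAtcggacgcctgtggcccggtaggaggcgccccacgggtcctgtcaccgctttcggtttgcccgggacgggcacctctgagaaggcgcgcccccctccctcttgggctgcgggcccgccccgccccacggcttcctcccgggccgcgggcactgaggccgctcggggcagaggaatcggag
Vamp8: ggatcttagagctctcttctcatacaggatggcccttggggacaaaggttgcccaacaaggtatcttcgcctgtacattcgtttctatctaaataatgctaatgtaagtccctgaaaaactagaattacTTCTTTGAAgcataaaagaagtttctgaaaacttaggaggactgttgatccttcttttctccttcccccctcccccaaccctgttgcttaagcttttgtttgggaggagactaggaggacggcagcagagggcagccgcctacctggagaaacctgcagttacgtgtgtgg

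The 2 windows differ in base composition. The Vamp5 window has a GC content of 67.3% with 25 CpG dinucleotides, and the Vamp8 window 46.7% with 5, while the median over 32851 promoter windows is 52.7%. The single match in the Vamp5 window is to GGAAA, which 61.3% of all windows hold, and the single match in the Vamp8 window is to the STAT letters, which 8.30% hold. The other motifs have no match in either window. Of the 99 trafficking genes 83 had a promoter entry, with 99 windows in all. The share of these windows with a match, beside that of the 8412 windows of genes on the array, was 65.7% beside 59.1% for the NFAT letters, 16.2% beside 9.55% for the E-box, 7.07% beside 7.03% for STAT and 6.06% beside 9.31% for Egr. It was 4.04% beside 6.24% for AP-1, 4.04% beside 3.13% for ISRE, 4.04% beside 2.60% for CRE and 2.02% beside 2.07% for NF-kB. Shares thus lay on both sides of those of the array genes, and no test was made of them.

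The genes around Vamp5 and Vamp8 were read out after their values had been seen. Among the 10 protein-coding genes from 4 before to 4 after them, 7 had a named probe set and 5 a tested one. Rnf181, the gene on the other side of Vamp5, which encodes a RING-finger ubiquitin ligase, was at 4089 and 2839 in anergic cells, against 2131 and 1644 in control cells. Both anergic arrays were above both control arrays, but the difference of 0.85 ± 0.27 (SE) did not pass (adjusted p = 0.183). The difference was 1.04 without control array 1 and 0.67 without control array 2. Capg, which encodes an actin-capping protein, was at 0.51 and Usp39, which encodes a splicing factor, at -0.28, and neither passed (adjusted p = 0.38 and 0.852). The other tested probe sets of Capg were at 0.36 and -0.60, so they differed in sign.

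**Figure D1:**
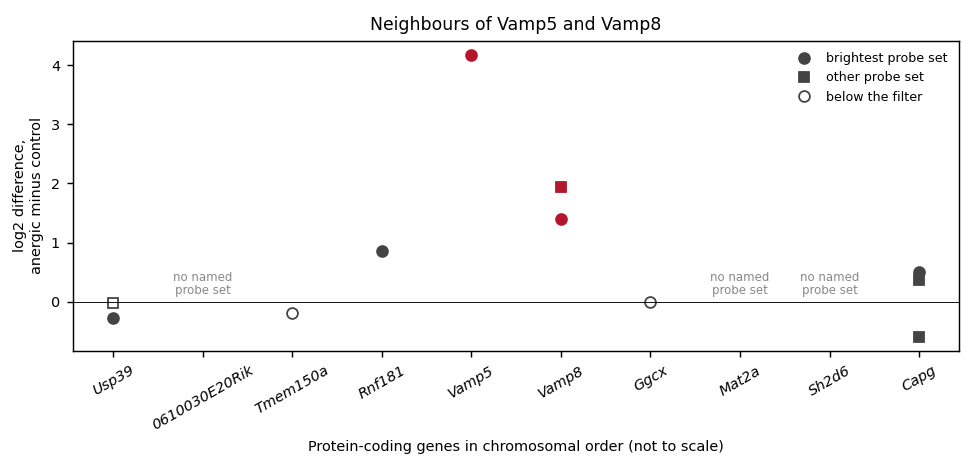
Log2 difference (anergic minus control) of each probe set for the 10 protein-coding genes around Vamp5 and Vamp8, in chromosomal order and not to scale (circles for the brightest probe set, squares for others, open below the filter, red for Vamp5 and Vamp8). Vamp5 stands at 4.18 and the 2 probe sets of Vamp8 at 1.40 and 1.94, while Rnf181 is at 0.85 and the other measured neighbours lie between -0.60 and 0.51.

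The remaining VAMP genes did not pass. Vamp4, a SNARE of the trans-Golgi network and endosomes, was at 1166 and 604 in anergic cells and at 577 and 529 in control cells (log2 difference 0.58 ± 0.34, SE, adjusted p = 0.556, and 0.12 to 1.04 with an array left out). Its groups did not overlap, but the gap between the anergic arrays was wider than that between the groups, and its second probe set was at 0.09. Vamp1, a synaptobrevin, differed by 0.42 ± 0.57 (SE, adjusted p = 0.875). Vamp2 and Vamp3, which encode the synaptobrevin and cellubrevin used in exocytosis and recycling, followed the array number and not the group. Vamp2 was at 2240 and 940 in anergic cells and at 1929 and 1028 in control cells. Vamp3 was at 720 and 346 in anergic cells and at 604 and 252 in control cells. On both, the arrays numbered 1 were the high ones. Their differences were 0.04 and 0.33, and that of Vamp7, a SNARE of late endosomes and lysosomes, was -0.30 (adjusted p = 0.979, 0.876 and 0.891). A second, dimmer probe set of Vamp2 was at 0.69 and did not pass either. All 7 VAMP genes on the array were tested, with 6 higher and 1 lower in anergic cells by sign, beside 41.9% higher among all genes tested. Their median was 0.42, beside -0.0850 over all genes tested. Vamp5 entered the test through its anergic values, so the filter favoured its place in this count and median. The signs of Vamp1, Vamp2, Vamp3 and Vamp7 changed in some fits with an array left out.

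Of the syntaxin genes on the array, 9 of 10 were tested and none was called by limma, while Stx1a alone had an unadjusted p under 0.05. Stx1a, the syntaxin of neuronal and endocrine secretion, was at 147.1 and 96.5 in anergic cells, against 306.3 and 318.7 in control cells. The groups were clearly apart, and the log2 difference of -1.20 ± 0.39 (SE, 95% interval from -2.06 to -0.34) had an adjusted p of 0.192. Stx6, a syntaxin of the trans-Golgi network, was at 897 and 702 in anergic cells and at 709 and 322 in control cells. Its groups overlapped, with a difference of 0.69 ± 0.37 (SE, adjusted p = 0.506) that rested on the control arrays. It was 1.23 without control array 1 and 0.16 without control array 2. Stx7, a late endosomal syntaxin, differed by 0.44 ± 0.27 and Stx4a, the syntaxin of plasma membrane fusion in most cells, by -0.38 ± 0.29 (SE), and for Stx4a by -0.0190 and -0.74 without control array 1 and 2. The other 5 tested syntaxins (Stx2, Stx5a, Stx8, Stx12 and Stx18) lay between -0.19 and 0.13.

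The partners of the syntaxins differed little. Snap23, the SNAP-25 relative used outside neurons, was at 252 and 249 in anergic cells and at 183 and 293 in control cells, so the control arrays lay on both sides of the anergic ones (0.10 ± 0.37, SE). Snap47 was at 750 and 752 in anergic cells, against 1029 and 1101 in control cells. Its groups did not overlap, and its difference of -0.49 ± 0.25 (SE, 95% interval from -1.06 to 0.08) did not pass (adjusted p = 0.499). Stxbp2 (Munc18-2), which chaperones syntaxin in granule release, was at 1236 and 1211 in anergic cells and at 1409 and 1273 in control cells, a difference of -0.13 with a 95% interval from -0.67 to 0.42. Stxbp3 (Munc18-3), its relative at the plasma membrane, was at 0.04 with an interval from -0.72 to 0.80. Snap25 and Snap91, genes of neurons, were below the filter, with values between 6.3 and 14.9 for Snap25 and between 4.9 and 48.3 for Snap91. Snap91 fits the symbol rule but was classed apart from the SNAP genes and is not counted as a syntaxin partner.

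**Figure D2:**
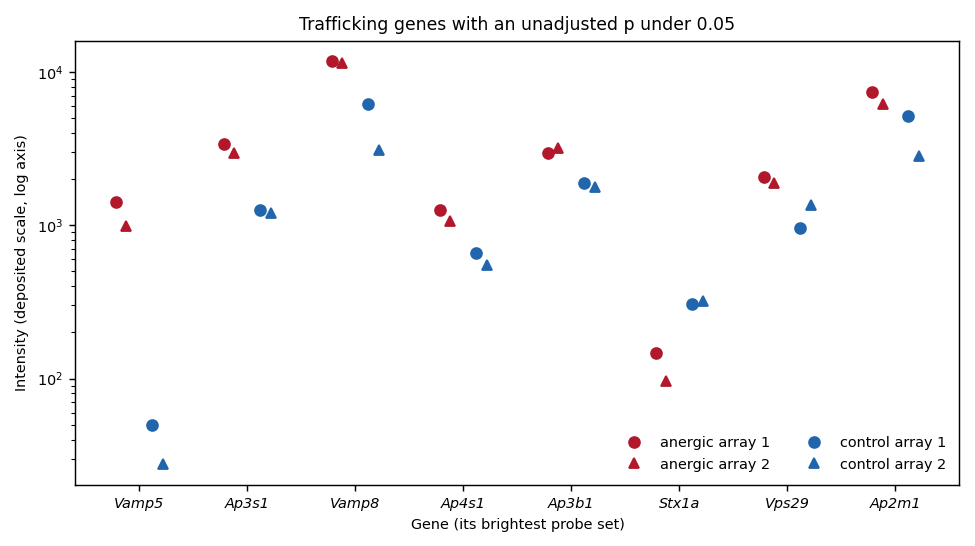
Deposited intensity on a log axis of the 8 trafficking genes with an unadjusted p under 0.05, ordered by p, with anergic arrays in red and control arrays in blue (circle for array 1, triangle for array 2). In each of the 8 genes the groups do not overlap, and Stx1a is the gene with lower values in anergic cells. Choosing genes by p on these same arrays favours groups without overlap, so their separation here is not a separate result.

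Ap3s1 was the adaptor gene that passed. It encodes a sigma subunit of AP-3, the adaptor that sorts membrane proteins from endosomes to lysosomes and lysosome-related organelles. It was at 3386 and 2973 in anergic cells, against 1251 and 1198 in control cells. The 2 arrays of each group were close to each other, and the log2 difference was 1.35 ± 0.23 (SE, 95% interval from 0.83 to 1.88, adjusted p = 0.0172). The difference held its size when each array was left out, between 1.26 and 1.45. It did not pass with anergic array 1 (1.26) or 2 (1.45) left out, where the spread came from the control arrays alone. The call was also lost without the intensity trend of the spread (adjusted p = 0.101).

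The other subunits of AP-3 moved unequally. Ap3b1, the large beta subunit, was at 2933 and 3167 in anergic cells, against 1881 and 1783 in control cells. The groups did not overlap, and the difference was 0.73 ± 0.23 (SE, 95% interval from 0.22 to 1.23, adjusted p = 0.184). Ap3s2, the second sigma subunit gene, was at 104.4 and 170.2 in anergic cells and at 62.6 and 69.7 in control cells, where both values were below the intensity of the filter (0.78 ± 0.49, SE, adjusted p = 0.6). The delta subunit Ap3d1 (-0.09 ± 0.25) and the medium subunit Ap3m1 (-0.17 ± 0.33, SE) had overlapping groups. With Ap3s1, 3 of the 5 AP-3 genes thus had both anergic arrays above both control arrays, and the median difference of all 5 was 0.73. Ap3s2 entered the test through its anergic values, so the filter favoured its place in this count and in the median. Over all 5583 genes 17.3% had that arrangement, and 17 of the 84 trafficking genes did. The 17 include Vamp5 and Ap3s2, which both passed the filter through their anergic values. Both anergic arrays lay below both control arrays in 10 of the 84, and in 24.0% of all genes.

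Subunits of the other adaptors did not pass. Ap4s1, the sigma subunit of AP-4, an adaptor of the trans-Golgi network, was at 1254 and 1072 in anergic cells, against 657 and 550 in control cells. These groups were well apart, with a difference of 0.92 ± 0.27 (SE, 95% interval from 0.32 to 1.51, adjusted p = 0.144). Ap2m1, the medium subunit of AP-2 that recognises the sorting signals of receptors in endocytosis, was at 7427 and 6209 in anergic cells, against 5151 and 2840 in control cells. As for Vamp8, control array 2 was the lowest. The difference of 0.82 ± 0.29 (SE, adjusted p = 0.259) was 1.25 without control array 1 and 0.40 without control array 2. The remaining AP-2 genes tested, the large subunits Ap2a1, Ap2a2 and Ap2b1, lay between -0.51 and 0.22. Ap2a2, at -0.51, had a second tested probe set at -0.04. The 5 tested genes of AP-1, the adaptor between the trans-Golgi network and endosomes (Ap1b1, Ap1g1, Ap1g2, Ap1m1 and Ap1s1), lay between -0.25 and 0.27. Ap1b1 (0.20) and Ap1g1 (-0.25) had a second tested probe set of opposite sign, and that of Ap1m1 (-0.19) was at -0.60. Among all 17 adaptor genes 15 were tested, and 9 were higher and 6 lower by sign, beside 41.9% higher among all genes tested. Ap3s2, among the 9, entered the test through its anergic values. An unadjusted p under 0.05 was found for 4, all higher, beside 6.32% of all genes.

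Of 20 Vps genes 18 were tested and none was called by limma, while Vps29 alone had an unadjusted p under 0.05. Vps29 is a core subunit of retromer, the complex that returns receptors from endosomes. It was at 2048 and 1874 in anergic cells, against 959 and 1344 in control cells. The groups did not overlap, and the difference of 0.77 ± 0.26 (SE, 95% interval from 0.19 to 1.36) did not pass (adjusted p = 0.226). It was 1.01 without control array 2 and 0.53 without control array 1. Its retromer partners Vps35, Vps26a and Vps26b lay between 0.06 and 0.35. Vps26c, a subunit of the related retriever complex, was at 520 and 922 in anergic cells and at 234 and 722 in control cells. Control array 1 was the lowest. The difference was 0.70 ± 0.48 (SE, adjusted p = 0.637) with all arrays, -0.0558 without control array 1 and 1.46 without control array 2. Both of its probe sets gave about the same values (0.70 and 0.73).

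The other Vps genes belong to tethers, to ESCRT and to smaller groups. Vps45, a syntaxin-binding protein of endosomes, was at 170 and 222 in anergic cells and at 123 and 121 in control cells (0.57 ± 0.41, SE, adjusted p = 0.674). Vps28, a subunit of ESCRT-I, which sorts ubiquitylated receptors into late endosomes, was at 3384 and 3284 in anergic cells, against 5009 and 4124 in control cells. Its groups did not overlap, with a difference of -0.44 ± 0.23 (SE, adjusted p = 0.482). Vps37b, another ESCRT-I subunit, was at 457.3 and 43.8 in anergic cells and at 943.5 and 128.6 in control cells. The arrays numbered 1 were high in both groups, so its difference of -1.06 ± 0.93 (SE, adjusted p = 0.744) had the widest interval of all 84 genes, from -3.13 to 1.01. It was 0.31 without anergic array 2, 0.26 without control array 1, -2.42 without anergic array 1 and -2.37 without control array 2, where it passed (adjusted p = 5.8e-05). The 4 GARP tether subunits Vps51 to Vps54 lay between -0.42 and 0.14, the HOPS tether subunits Vps16 and Vps41 at -0.27 and 0.31, the third ESCRT-I subunit Vps37c at -0.02, and the ATPases Vps4a and Vps4b that disassemble ESCRT at -0.20 and -0.09. Vps72 fits the symbol rule but encodes a chromatin protein.

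**Figure D3:**
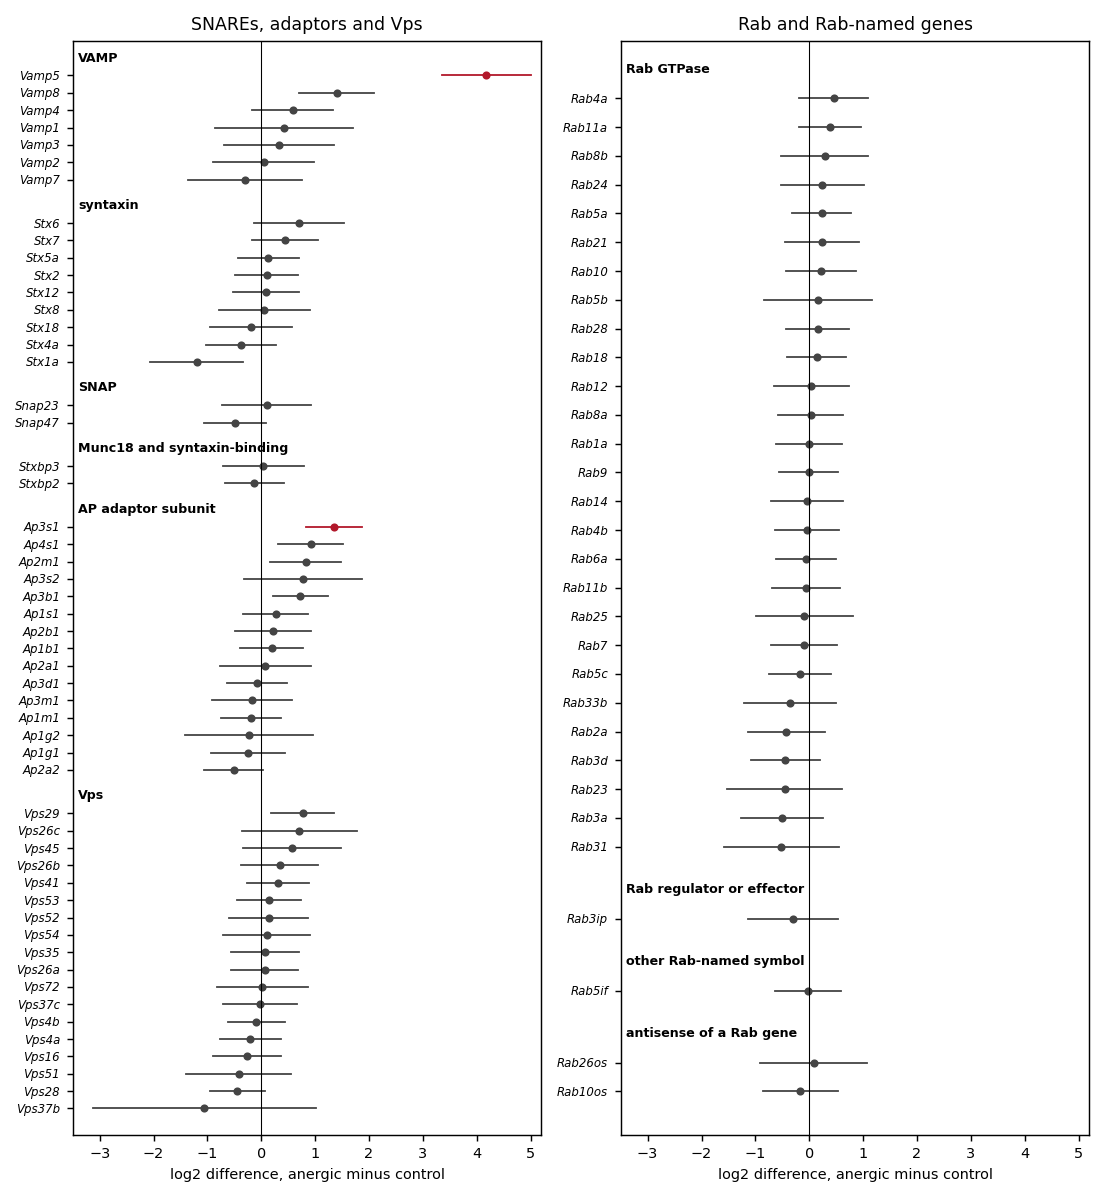
Log2 difference (anergic minus control, points) with its 95% interval (lines) for the 84 tested trafficking genes by role, with genes past the threshold in red. Vamp5 (4.18) and Ap3s1 (1.35) are red, and the points of the Rab GTPases all lie between -0.52 and 0.45.

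The Rab GTPases differed by at most 0.52 either way. Of 33 Rab GTPase genes on the array 27 were tested, none passed in limma and 0 had an unadjusted p under 0.05. Their differences lay between -0.52 and 0.45 with a median of -0.01, with 12 higher and 15 lower by sign. For 17 of the 27 the whole 95% interval lay between -1 and 1, so for these a change of more than 2-fold either way was outside the interval. The 2 Rab genes with the smallest p differed in direction. Rab4a, of fast recycling from early endosomes, was at 1560 and 1294 in anergic cells and at 1289 and 824 in control cells (0.45 ± 0.29, SE, adjusted p = 0.601, and 0.14 to 0.77 with an array left out). Rab3d, of regulated secretion, was at 437 and 510 in anergic cells and at 591 and 723 in control cells (-0.45 ± 0.29, SE, adjusted p = 0.608). In both the groups did not overlap, though for Rab4a only by a small margin.

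Grouped by compartment, the Rabs showed no common direction. Rab3a, the other tested Rab3 gene of regulated secretion, differed by -0.50 ± 0.34 (SE), and by -0.93 and -0.0632 without control array 1 and 2. Rab8a, of transport from the Golgi to the plasma membrane, was at 2796 and 3027 in anergic cells and at 2255 and 3611 in control cells, and differed by 0.03 with a 95% interval from -0.58 to 0.63. The 4 Rabs of early endosomes (Rab5a, Rab5b, Rab5c and Rab21) lay between -0.17 and 0.23. The 6 of recycling (Rab4a, Rab4b, Rab11a, Rab11b, Rab14 and Rab25) lay between -0.09 and 0.45, and Rab11a at 0.38 had a second probe set at -0.38. Rab7 and Rab9, of late endosomes, were at -0.10 and -0.01. The 5 of the endoplasmic reticulum and Golgi (Rab1a, Rab2a, Rab6a, Rab18 and Rab33b) lay between -0.43 and 0.14. Among the other Rabs, Rab8b, Rab10, Rab12, Rab23, Rab28 and Rab31 lay between -0.52 and 0.29. Rab24, which has been linked to autophagy, was bright and varied by array: it was at 3357 and 2380 in anergic cells and at 3444 and 1641 in control cells. Rab3ip (rabin3), an activator of Rab8, was at 172 and 170 against 206 and 227 (-0.30 ± 0.37, SE). Rab5if, named for binding Rab5, and the antisense transcripts Rab10os and Rab26os fit the symbol rule but are not Rab GTPases, and lay between -0.17 and 0.09.

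Across all 84 tested genes, 47 were higher and 37 lower in anergic cells by sign (56.0% higher), beside 41.9% higher among all genes tested. The median difference was 0.05, beside -0.0850 over all genes. It was -0.00258 without control array 2, beside -0.0261 over all genes, and 0.15 with each array centred on its median, beside 0.0214. Without the filter it was 0.04 over all 99 genes, beside -0.0958 over 8251. Differences within 0.5 of 0 were found for 68 of the 84 genes (81.0%), beside 74.1% of all genes. Several probe sets were tested for 17 genes; they shared a sign in 12 of these, and the widest gap between probe sets of a gene was 0.76. The 15 genes below the filter had values between 4.9 and 115.9 and were not tested: they are Ap1s2, Ap2s1, Rab3b, Rab3il1, Rab11fip5, Rab17, Rab20, Rab33a, Rab34, Rab35, Snap25, Snap91, Stx3, Vps13c and Vps37a.

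**Figure D4:**
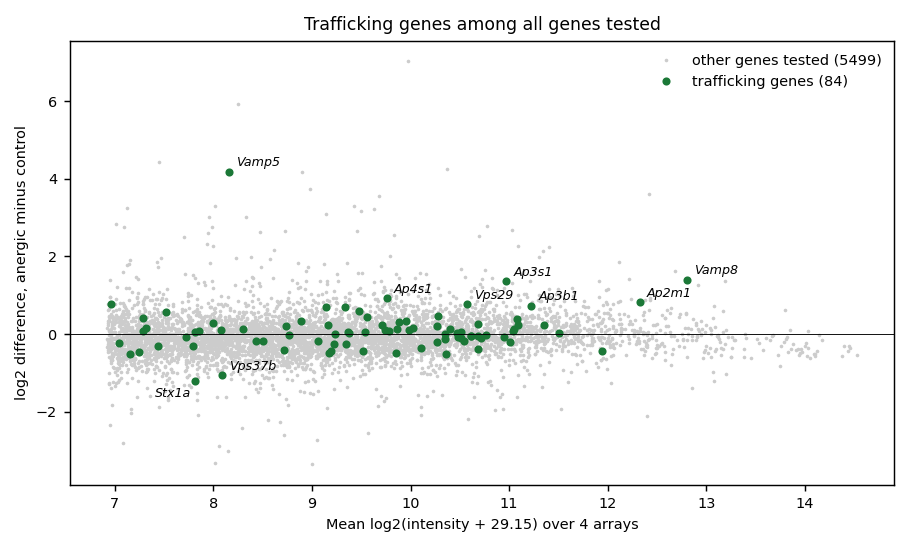
Log2 difference (anergic minus control) against mean log2(intensity + 29.15) for all 5583 genes tested (grey) and the 84 trafficking genes (green), with the genes of an unadjusted p under 0.05 and Vps37b named. Vamp5 lies far above the other trafficking genes, most of which lie within 0.5 of 0.

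Other genes of the same pathways were read from 12 lists of coats, tethers, Rab regulators, Arf GTPases, endocytic factors, ESCRT and sorting genes, in which 162 genes were measured and 136 tested. In limma 2 rose, 0 fell and the rest did not pass, beside 1.33% higher and 0.842% lower over all genes. At an unadjusted p under 0.05, 14 of the 136 genes were higher and 3 lower, beside 6.32% and 6.38% over all genes. Both genes that rose belong to the list of Arf and Arl GTPases and their regulators, where 11 of 13 did not pass and the median was 0.08. Cyth3, an Arf exchange factor that binds the phosphoinositide made by PI3-kinase, was at 804 and 911 in anergic cells, against 148 and 87.2 in control cells (log2 difference 2.62 ± 0.35, SE, adjusted p = 0.00401). Arl3, an Arf-like GTPase known from cilia, was at 1754 and 1519 in anergic cells, against 755 and 660 in control cells (1.18 ± 0.25, SE, adjusted p = 0.0482). In both the groups were far apart. The difference of Cyth3 was between 2.32 and 2.93 when an array was left out. Arl3 did not pass with anergic array 1 (1.07) or 2 (1.28) left out, where the spread came from the control arrays alone. Its call lay near the threshold and was also lost with a pseudocount of 1 (adjusted p = 0.0514), no filter (0.058), quantile normalization (0.0714), median centring (0.25) and no intensity trend (0.161).

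The other 11 lists had 0 genes past the threshold in limma. Among 16 tested Rab regulators Eea1, the Rab5 effector that tethers early endosomes, was at 1213 and 643 in anergic cells, against 338 and 310 in control cells (1.37 ± 0.34, SE, adjusted p = 0.0887). Its difference was 0.93 and 1.82 without anergic array 1 and 2, and 1.43 and 1.32 without control array 1 and 2. The list's median was -0.05, so Eea1 stood apart from its other members. Of 4 tested synaptotagmins and priming factors Syt11 had the smallest p (0.99 ± 0.26, adjusted p = 0.105), and of 19 clathrin and endocytosis genes Bin1, which bends membranes, did (0.94 ± 0.25, adjusted p = 0.106). Bin1 was at 1.05 without control array 2 and at 0.84 without control array 1.

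The genes with the smallest p in the other lists did not pass with all arrays in the unblocked fit either. Sec13, a COPII coat subunit, was at 0.81 ± 0.25 (SE, adjusted p = 0.167), with 0.998 without control array 1 and 0.63 without control array 2. Arfgap3, which acts on the COPI coat, was at 1.33 ± 0.49 (SE, adjusted p = 0.282), with 2.06 without control array 2 and 0.59 without control array 1. Igf2r, the receptor that carries lysosomal enzymes by their mannose 6-phosphate, was at 0.82, the sorting nexin Snx9 at 0.83, the Golgi tether subunit Trappc4 at 0.63, the Golgi SNARE Gosr2 at 0.58 and the exocyst subunit Exoc4 at 0.57. Ist1, an ESCRT-III protein, was the one with a lower value in anergic cells (-0.47 ± 0.28, SE).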

How the data were processed

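Intensities of 12488 probe sets on 4 arrays (2 anergic, 2 control) were used as deposited by the authors. Per the labels' protocols, Trizol was used to isolate RNA, from which biotinylated cRNA was prepared. For array software and background correction, the sources used here give no name. The deposited scale was kept, since all 4 arrays had a mean of 500.3 after 2% was trimmed at each end. Depth is not defined for arrays, and their number limits the precision. Intensities were transformed as log2(value + 29.15), the pseudocount being the median over arrays of the 20th percentile. After 66 control probe sets were left out, each gene with a single symbol in GEO's platform annotation (10833 of 12422 probe sets) was represented by the probe set with the highest mean log2 value. Its entrez ID gave the same symbol in RefSeq (GRCm38.p6) for all 99 trafficking genes. One probe set with several symbols, among them a Vps gene, was left out.

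Genes above the 40th percentile were fitted with limma 3.58.1 in R 4.3.3 (lmFit, eBayes with trend, 2 residual and 7.74 prior degrees of freedom). The procedure was also run on simulated data with independent arrays and planted changes larger than those of Ap3s1 and Arl3. That run therefore does not vouch for calls of their size or for arrays that deviate together. With 2 arrays in each group, the smallest two-sided p of an exact permutation test is 0.333. Members, lists, roles and tests were chosen with earlier results of these data known. Named are the genes past the threshold, up to 4 per role with the smallest p and the brightest per role, genes whose probe sets disagree, the gene with the smallest p in each list, and the 5 brightest and 5 dimmest members. Vamp2, Vamp3, Vamp7, Vps37b, Rnf181, the markers named singly and the setting apart of Rab5if and the antisense transcripts were chosen after their values were seen, and other members are named to account for all. Alternatives were other pseudocounts, filters, normalizations, probe set rules, spread estimates, the replicate block and leaving out each array.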

Additional observations from a re-analysis of the deposited data

How the results depend on the processing

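With 2 arrays a group, counts of calls depend strongly on the spread estimate. Leaving out an array both lost and gained calls, and in those fits the spread of a group with 1 array was taken from the other. The trafficking genes called higher numbered 2, and 1 with the stricter filter (where Vamp5 was not tested), with centring and without the intensity trend. They numbered 1 to 5 when an array was left out, and those called lower 0 to 1. Over all genes, 74 higher and 47 lower became 47 and 13 with centring, 32 and 12 without the trend, and 30 lower without a filter. Leaving out an array gave 32 to 168 higher and 25 to 114 lower. The titles share replicate numbers, and same-numbered arrays deviated together (r = 0.54 over 7453 probe sets), but with 2 numbers this does not show pairing. With the replicate block 348 genes were higher and 359 lower, which is 6.23% and 6.43% of all genes tested. The block takes up a further residual degree of freedom, so the spread in that fit rests more on the prior than in the main fit. Of the 84 trafficking genes 7 were then higher (Ap2m1, Ap3b1, Ap3s1, Ap4s1, Vamp5, Vamp8 and Vps29) and 2 lower (Stx1a and Vps37b). Of the other genes named, Rnf181 (adjusted p = 0.00498), Eea1 (0.000537), Syt11 (0.00286), Bin1 (0.00266), Sec13 (0.00925), Arfgap3 (0.0116), Igf2r (0.0158), Snx9 (0.00974) and Trappc4 (0.046) also passed with the block, while Gosr2, Exoc4 and Ist1 did not. All of these but Rnf181 had been named for the smallest p of their lists on these same arrays.

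The genes below changed sign in some settings, and none of them passed with its sign changed. The cause was not tested. With the mean of the probe sets Ap1b1 was at -0.00095, Ap1g1 at 0.0567, Rab11a at -0.00072 and Rab14 at 0.10. With centring Rab14 was at 0.0636 and Rab7 at 0.011, and with quantile normalization Rab8a was at -0.0248. Leaving out an array gave -0.0158 to 0.41 for Ap1b1, -0.53 to 0.035 for Ap1g1, -0.36 to 0.28 for Rab14, -0.28 to 0.77 for Rab24, -0.37 to 0.18 for Rab7, -0.31 to 0.36 for Rab8a, -0.20 to 0.40 for Snap23 and -0.33 to 0.41 for Stxbp3. It gave -0.26 to 1.09 for Vamp1, -0.57 to 0.66 for Vamp2, -0.26 to 0.91 for Vamp3, -0.70 to 0.0947 for Vamp7, -0.0558 to 1.46 for Vps26c and -2.42 to 0.31 for Vps37b. A single array left in a group was assumed to vary like the other group.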
